A study of Sus scrofa with 63 samples.

Results

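LTF, SLPI, DEFB1 and TCN1 encode 4 secreted proteins that epithelia and neutrophils release at body surfaces. They were followed in porcine skin after sulfur mustard, an alkylating blister agent. They are 4 of the 6765 genes that the array annotation supplied names with 1 symbol. Where a symbol had several probe sets, the one with the highest mean over the 63 arrays was used. The genes had been proposed from the difference between exposed and control skin, so that difference is described here without a test.

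Lactoferrin, the product of LTF, binds iron and so withholds it from bacteria, and is stored in the secondary granules of neutrophils and secreted by glands. SLPI is a whey acidic protein family inhibitor of neutrophil elastase and cathepsin G that keratinocytes and mucosal epithelia secrete, and it also kills bacteria directly. Beta-defensins are small cationic peptides of epithelia that disrupt microbial membranes. TCN1 encodes haptocorrin, a cobalamin-binding protein of neutrophil secondary granules and of exocrine secretions such as saliva.

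Female Yorkshire crossbred pigs had been depilated, and 400 µL of neat sulfur mustard was applied to abdominal skin for 8 min to make lesions of 3 cm. Biopsies of 8 mm were taken at 9 times, 1, 2, 4, 24, 48, 72, 168, 336 and 514 h. Each time held 3 exposed arrays, 3 control arrays from unexposed sites of exposed animals and 1 sham array, each hybridized with material from 10 µg of total RNA. By the design text, 3 animals gave the exposed and control sites of a time and another animal, prepared but not exposed, was the sham, so a sham value is 1 animal. The last time is 514 h in the labels and a slightly earlier time in the design text. Each biopsy is a mixture of cells, and in such bulk RNA fewer cells of a type and less RNA per cell cannot be told apart.

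Signals are given on the log2 scale, on which a difference of 1 is a 2-fold difference, and the values of different probe sets are not compared as levels. The medians of the 63 arrays lay between 7.746 and 7.862, and the lower quartile of probe set means was 6.44; probe sets under it are called dim below. Differentiated keratinocyte genes such as KRT1 (mean 13.52) and KRT10 (13.65) were bright, as the label skin implies. Skeletal muscle was also sampled: the mean log2 signal of 26 muscle genes ranged from 7.48 to 12.55 in exposed and from 10.11 to 13.22 in control arrays at 24 to 72 h, and from 7.40 to 11.34 and from 7.51 to 13.14 at 168 to 514 h. With that muscle score as a covariate the members' window differences moved by less than the spread between replicates.

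The probe set used for LTF had a mean of 9.83 (84.9th percentile of the 23999 probe sets tested) and that for SLPI a mean of 10.64 (92.6th percentile). TCN1 had a mean of 8.02 (54th percentile), and its other probe set, with a mean of 5.89, was dim. The symbol DEFB1 covered 2 different genes. By NCBI gene number the brighter probe set, used here as the rule asks, belongs to the RefSeq gene with the other name PBD-2 (mean 8.81), and the other to the gene named PBD-1 (mean 7.11). RefSeq names from the Sscrofa11.1 assembly were matched by gene number, and no sequence of these genes was used here.

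The LTF signal was close to that of control skin up to 4 h, higher from 24 h, highest at 168 h and still above all control arrays of the same time at 514 h. The sham array of 514 h, at 10.30, lay between the highest control array (9.62) and the lowest exposed array (10.71) of that time.

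At 1 h the exposed arrays read 9.77, 9.18 and 10.18 for LTF, the control arrays 9.58, 8.45 and 9.74, and the sham array 8.10. At 2 h the values were 8.98, 8.74 and 10.39 in exposed, 8.79, 8.92 and 10.11 in control and 8.82 in sham skin. At 4 h they were 9.48, 9.87 and 8.94, with 8.75, 10.02 and 9.07 in control and 10.29 in sham skin. Exposed and control groups overlapped at each of these times, and the differences were 0.45 ± 0.47 (SE, here and below, from the limma fit), 0.10 ± 0.47 and 0.15 ± 0.47. Groups that did not overlap were few among all probe sets too: exposed arrays were all higher in 5.40%, 4.57% and 5.52% at 1, 2 and 4 h, and all lower in 7.89%, 5.02% and 7.03%.

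At 24 h the exposed arrays read 11.50, 10.23 and 10.19 for LTF, the control arrays 10.40, 7.82 and 7.92, and the sham array 8.55. At 48 h exposed skin gave 10.45, 10.66 and 11.24, control skin 9.59, 8.96 and 9.01 and sham skin 9.09. At 72 h exposed skin gave 11.37, 11.45 and 11.60, control skin 9.80, 9.55 and 9.42 and sham skin 9.03. The groups overlapped at 24 h through control replicate 1, which stood 2.48 above the next control array, and were apart by 0.86 at 48 h and 1.57 at 72 h. Of all probe sets 13.5% had every exposed array above every control array at 48 h and 13.8% at 72 h. The difference at 24 h was 1.93 ± 0.47 (3.81-fold), and 2.77 without that control array. The later differences were 1.60 (48 h) and 1.88 (72 h).

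At 168 h the exposed arrays read 12.73, 12.18 and 12.63 for LTF, the control arrays 9.28, 8.36 and 8.99, and the sham array 9.26. At 336 h exposed skin gave 11.27, 11.75 and 11.90, control skin 9.54, 8.93 and 9.62 and sham skin 7.89. At 514 h exposed skin gave 10.71, 10.90 and 10.82, control skin 9.24, 9.37 and 9.62 and sham skin 10.30. The groups were apart at all 3 times, by 2.90, 1.64 and 1.09, as were 17.1%, 14.2% and 15.3% of all probe sets in that direction. The difference was 3.64 ± 0.47 at 168 h (12.4-fold), 2.27 at 336 h and 1.40 at 514 h (2.64-fold). Averaged over 3 times, it was 0.23 ± 0.27 at 1 to 4 h, 1.80 ± 0.27 at 24 to 72 h and 2.44 ± 0.27 at 168 to 514 h.

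Ordered by their means, the exposed groups of LTF ran from 168 h (12.51 ± 0.29, SD, n = 3) to 336 h (11.64 ± 0.33), 72 h (11.47 ± 0.12), 514 h (10.81 ± 0.09), 48 h (10.78 ± 0.41) and 24 h (10.64 ± 0.75), followed by 1, 4 and 2 h. The 168 h arrays did not overlap those of 336 h, while 336 and 72 h overlapped, as did 514, 48 and 24 h in turn. The times were processed in 3 periods, and 168, 336 and 72 h lie in different ones. Here and where signals of different times are compared below, time and period cannot be told apart across periods. This holds too for counts beyond the most extreme unexposed array of the series. The highest of the 36 unexposed arrays was the 24 h control array at 10.40. In exposed skin 1 of 3 arrays at 24 h and 3 of 3 at each later time exceeded it, 16 of 27 in all. Here and below such counts were made for the members only, so no share over all probe sets stands beside them. They restate in part the contrast that the genes were chosen on.

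**Figure D1:**
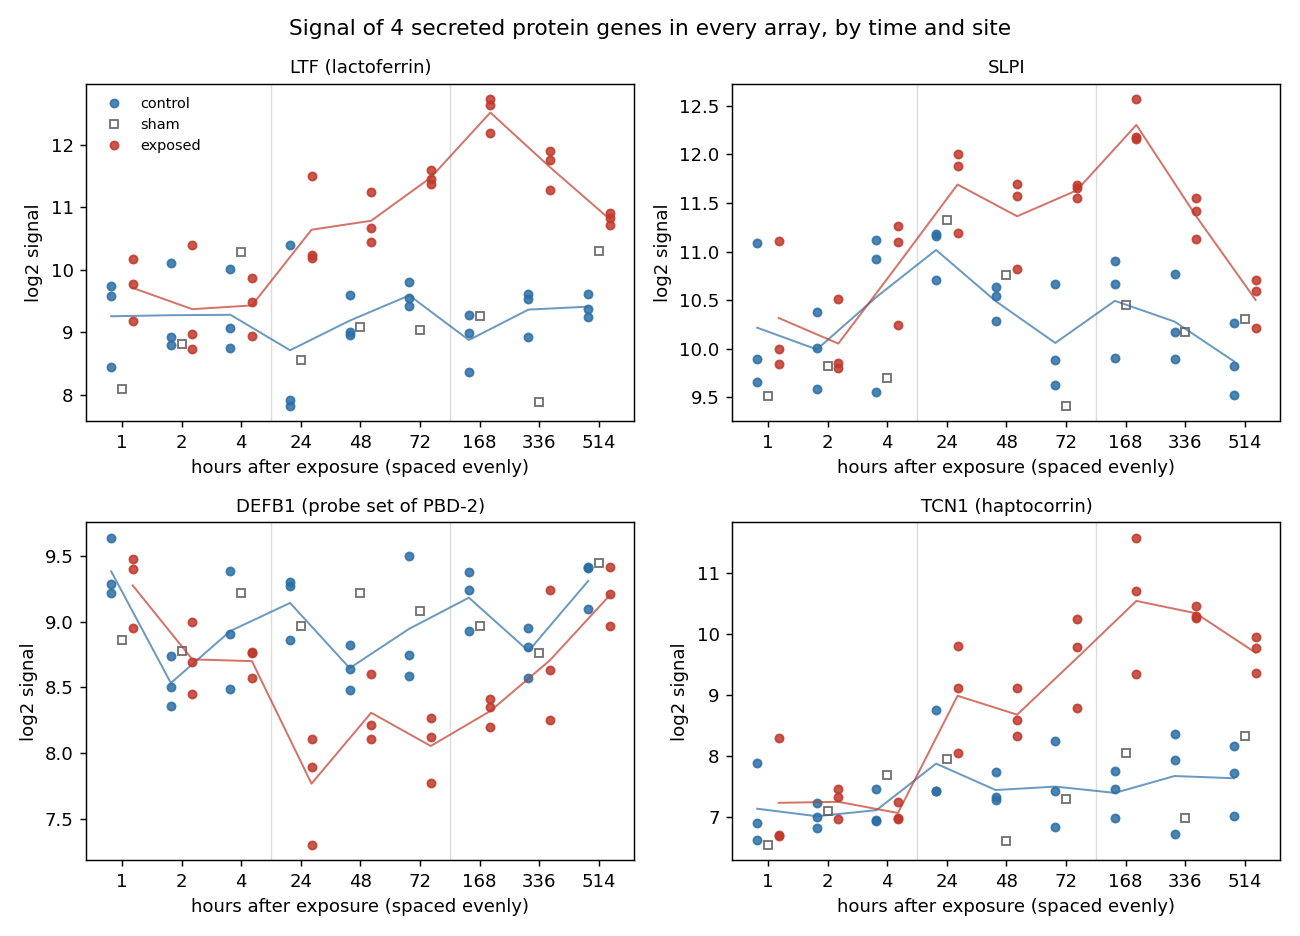
Log2 signal of LTF, SLPI, DEFB1 (probe set of PBD-2) and TCN1 in each of 63 arrays against hours after exposure, in evenly spaced steps; filled points are exposed (red) and control (blue) arrays, open squares sham arrays, and lines join the means of 3 arrays. LTF and SLPI were highest in exposed skin at 168 h, at 12.51 and 12.31 on average, and TCN1 at 168 and 336 h, while DEFB1 was lowest at 24 h, at 7.77.

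TCN1 followed a course like that of LTF, with its highest exposed mean at 168 h too. Up to 4 h exposed and control arrays overlapped, and at 514 h the difference was 2.06, larger than the 1.40 of LTF at that time, a comparison that was not tested.

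At 1 h the exposed arrays read 8.29, 6.71 and 6.69 for TCN1, the control arrays 7.88, 6.90 and 6.62, and the sham array 6.54. At 2 h exposed skin gave 6.96, 7.46 and 7.32, control skin 6.99, 7.23 and 6.81 and sham skin 7.09. At 4 h exposed skin gave 7.25, 6.96 and 6.98, control skin 6.93, 6.95 and 7.45 and sham skin 7.69. Replicate 1 was the highest of its group at 1 h in exposed and in control skin alike. The differences were 0.10 ± 0.48, 0.24 ± 0.48 and -0.05 ± 0.48, and without exposed replicate 1 the first was -0.43.

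At 24 h the exposed arrays read 9.81, 8.04 and 9.11 for TCN1, the control arrays 8.76, 7.43 and 7.43, and the sham array 7.95. At 48 h exposed skin gave 8.32, 9.12 and 8.59, control skin 7.32, 7.73 and 7.27 and sham skin 6.60. At 72 h exposed skin gave 9.78, 10.24 and 8.79, control skin 8.24, 7.42 and 6.83 and sham skin 7.30. Control replicate 1 at 24 h, the array that was high for LTF, was again the highest control array, and the groups overlapped. They were apart by 0.59 at 48 h and 0.55 at 72 h, as were 13.5% and 13.8% of all probe sets in that direction. The difference at 24 h was 1.11 ± 0.48, and it ranged from 0.70 without exposed replicate 1 to 1.59 without exposed replicate 2. At 48 and 72 h it was 1.24 and 2.11.

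At 168 h the exposed arrays read 11.58, 10.70 and 9.35 for TCN1, the control arrays 7.75, 7.45 and 6.98, and the sham array 8.05. At 336 h exposed skin gave 10.27, 10.29 and 10.46, control skin 7.93, 6.72 and 8.36 and sham skin 6.98. At 514 h exposed skin gave 9.36, 9.95 and 9.77, control skin 7.01, 7.72 and 8.17 and sham skin 8.32. No exposed array overlapped a control array in this window, with gaps of 1.60, 1.91 and 1.19, though the 168 h exposed arrays spread over more than 2 log2 units. Of all probe sets 17.1%, 14.2% and 15.3% had every exposed array above every control array at these times. The difference was 3.15 ± 0.48 at 168 h (8.89-fold), 2.67 at 336 h (6.36-fold) and 2.06 at 514 h (4.17-fold). Averaged over the windows it was 0.10 ± 0.28, 1.49 ± 0.28 and 2.63 ± 0.28.

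By their means the exposed groups of TCN1 ran from 168 h (10.55 ± 1.12, SD, n = 3) and 336 h (10.34 ± 0.10), which overlapped, to 514 h (9.69 ± 0.30), 72 h (9.61 ± 0.74), 24 h (8.99 ± 0.89) and 48 h (8.68 ± 0.41), each overlapping the next. The 1 to 4 h groups lay at 7.07 to 7.25, below all 3 arrays of 48 h. Of 27 exposed arrays 15 exceeded 8.76, the highest unexposed array, among them all 12 of 72 h and later. The dim second probe set of TCN1 differed by 0.24 ± 0.07 at 168 to 514 h and by 0.14 ± 0.07 at 24 to 72 h. RMA values of dim probe sets are compressed, so this smaller difference is no measure of the change in RNA.

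SLPI was already one of the brighter probe sets in unexposed skin, and its differences were smaller. At 1 h the exposed arrays read 9.84, 10.00 and 11.11 for SLPI, the control arrays 9.66, 9.90 and 11.09, and the sham array 9.51. At 2 h exposed skin gave 9.80, 9.85 and 10.51, control skin 10.38, 9.59 and 10.01 and sham skin 9.82. At 4 h exposed skin gave 11.10, 10.24 and 11.26, control skin 11.12, 9.56 and 10.92 and sham skin 9.70. The groups overlapped at these times, with differences of 0.10 ± 0.37, 0.06 ± 0.37 and 0.33 ± 0.37. Replicate 3 was the highest at 1 h and replicate 2 the lowest at 4 h in exposed and control skin alike, and without control replicate 2 the 4 h difference was -0.16.

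At 24 h the exposed arrays read 11.19, 12.00 and 11.88 for SLPI, the control arrays 10.71, 11.18 and 11.16, and the sham array 11.33. At 48 h exposed skin gave 11.70, 10.82 and 11.57, control skin 10.29, 10.64 and 10.54 and sham skin 10.76. At 72 h exposed skin gave 11.69, 11.65 and 11.55, control skin 10.67, 9.88 and 9.63 and sham skin 9.41. Exposed arrays were above control arrays by as little as 0.01 at 24 h, by 0.18 at 48 h and by 0.88 at 72 h. Of all probe sets 19.9%, 13.5% and 13.8% showed that order. The 24 h control and sham arrays were themselves high, with a control mean of 11.02 ± 0.27 (SD, n = 3) against 9.87 to 10.54 at the other times. The 72 h difference was 1.57 ± 0.37 (2.97-fold), after 0.67 at 24 h and 0.88 at 48 h.

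At 168 h the exposed arrays read 12.57, 12.18 and 12.16 for SLPI, the control arrays 10.90, 9.91 and 10.67, and the sham array 10.45. At 336 h exposed skin gave 11.55, 11.13 and 11.42, control skin 10.17, 9.90 and 10.77 and sham skin 10.17. At 514 h exposed skin gave 10.59, 10.71 and 10.21, control skin 10.27, 9.82 and 9.52 and sham skin 10.31. The groups were apart by 1.27 and 0.36 at 168 and 336 h and overlapped by 0.06 at 514 h. Of all probe sets 17.1% and 14.2% had every exposed array above every control array at 168 and 336 h. The difference was 1.81 ± 0.37 at 168 h (3.52-fold), 1.09 at 336 h and 0.63 at 514 h. Over the windows it was 0.16 ± 0.21, 1.04 ± 0.21 and 1.18 ± 0.21, and against the 3 sham arrays of 1 to 4 h it was 0.74 ± 0.30.

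The exposed groups of SLPI ran by their means from 168 h (12.31 ± 0.23, SD, n = 3), which overlapped no other, through 24 h (11.69 ± 0.44), 72 h (11.63 ± 0.07), 336 h (11.37 ± 0.22) and 48 h (11.36 ± 0.47), each overlapping the next. Those of 4 h (10.87), 514 h (10.50), 1 h (10.32) and 2 h (10.06) came after. Of 27 exposed arrays 12 exceeded the highest unexposed array, the 24 h sham array at 11.33, and none of these was of 514 h.

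**Figure D2:**
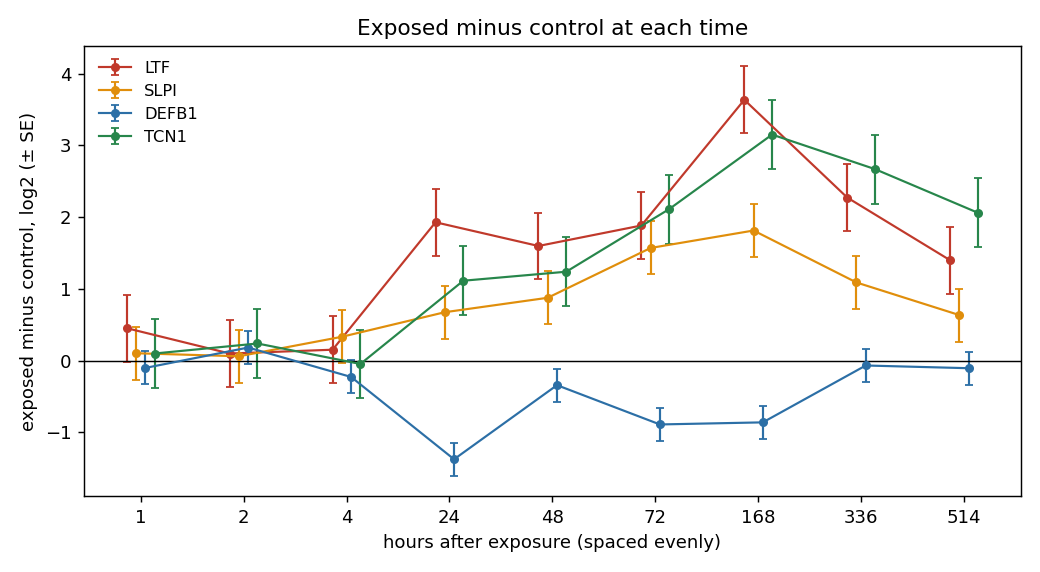
Exposed minus control on the log2 scale with its standard error at each of 9 times for the 4 genes, from limma's fit over all arrays, with times in evenly spaced steps. LTF, SLPI and TCN1 stood highest at 168 h, at 3.64, 1.81 and 3.15, while DEFB1 was lowest at 24 h, at -1.38, and near 0 at 336 and 514 h.

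DEFB1 was lower, not higher, in exposed skin. By the probe set of PBD-2, exposed and control arrays overlapped up to 4 h, exposed arrays lay below control arrays at 24, 72 and 168 h, and the groups overlapped again at 336 and 514 h.

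At 1 h the exposed arrays read 8.95, 9.40 and 9.48 for DEFB1, the control arrays 9.29, 9.64 and 9.22, and the sham array 8.86. At 2 h exposed skin gave 8.69, 9.00 and 8.45, control skin 8.36, 8.74 and 8.50 and sham skin 8.78. At 4 h exposed skin gave 8.77, 8.57 and 8.76, control skin 8.49, 9.39 and 8.91 and sham skin 9.22. The differences were -0.10, 0.18 and -0.23, each ± 0.23. Control means of this probe set ranged from 8.54 at 2 h to 9.38 at 1 h, and these 2 times were processed in different periods, so time and period cannot be told apart.

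At 24 h the exposed arrays read 8.11, 7.89 and 7.30 for DEFB1, the control arrays 9.27, 8.86 and 9.30, and the sham array 8.97. At 48 h exposed skin gave 8.21, 8.11 and 8.60, control skin 8.64, 8.48 and 8.82 and sham skin 9.22. At 72 h exposed skin gave 8.12, 7.77 and 8.27, control skin 9.50, 8.75 and 8.59 and sham skin 9.08. Exposed arrays were below control arrays by 0.75 at 24 h and 0.32 at 72 h, as were 20.6% and 12.7% of all probe sets, and overlapped them by 0.12 at 48 h, when 11.1% were below. The difference was -1.38 ± 0.23 at 24 h (2.60-fold lower), -0.34 at 48 h and -0.89 at 72 h.

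At 168 h the exposed arrays read 8.41, 8.35 and 8.20 for DEFB1, the control arrays 9.38, 9.24 and 8.93, and the sham array 8.97. At 336 h exposed skin gave 8.63, 9.24 and 8.25, control skin 8.81, 8.95 and 8.57 and sham skin 8.76. At 514 h exposed skin gave 9.21, 9.42 and 8.97, control skin 9.41, 9.42 and 9.10 and sham skin 9.45. Exposed arrays lay below control arrays by 0.52 at 168 h, an order that 15.3% of all probe sets showed. The groups overlapped afterwards, at times when 11.6% and 14.1% had exposed arrays below. From -0.86 ± 0.23 at 168 h the difference went to -0.07 (336 h) and -0.11 (514 h). Over the windows it was -0.05 ± 0.13, -0.87 ± 0.13 and -0.35 ± 0.13.

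The lowest exposed groups were those of 24 h (7.77 ± 0.42, SD, n = 3), 72 h (8.06 ± 0.26), 48 h (8.30 ± 0.26) and 168 h (8.32 ± 0.11), each overlapping the next. The 4 h group (8.70 ± 0.11) did not overlap that of 168 h. Below the lowest unexposed array, a 2 h control array at 8.36, lay 11 of 27 exposed arrays, all of them from 24 to 336 h.

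The PBD-1 probe set behaved differently from that of PBD-2. Its difference was 0.18 ± 0.13 at 1 to 4 h, -0.04 ± 0.13 at 24 to 72 h and 0.30 ± 0.13 at 168 to 514 h. At 514 h the exposed arrays read 8.27, 8.88 and 7.92, the control arrays 7.51, 7.59 and 7.15, and the sham array 7.53. Every exposed array of that time was above the control arrays and the sham array, with a gap of 0.33 to the control arrays and a difference of 0.94 ± 0.23 (1.91-fold). Of all probe sets 15.3% had exposed arrays above control arrays at that time. At 2 h exposed arrays were also above control arrays, by 0.07, as were 4.57% of all probe sets. At the other 7 times the groups overlapped. A mean over the 2 probe sets mixes 2 genes, and by it the difference was -0.46 at 24 to 72 h and -0.02 at 168 to 514 h.

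**Figure D3:**
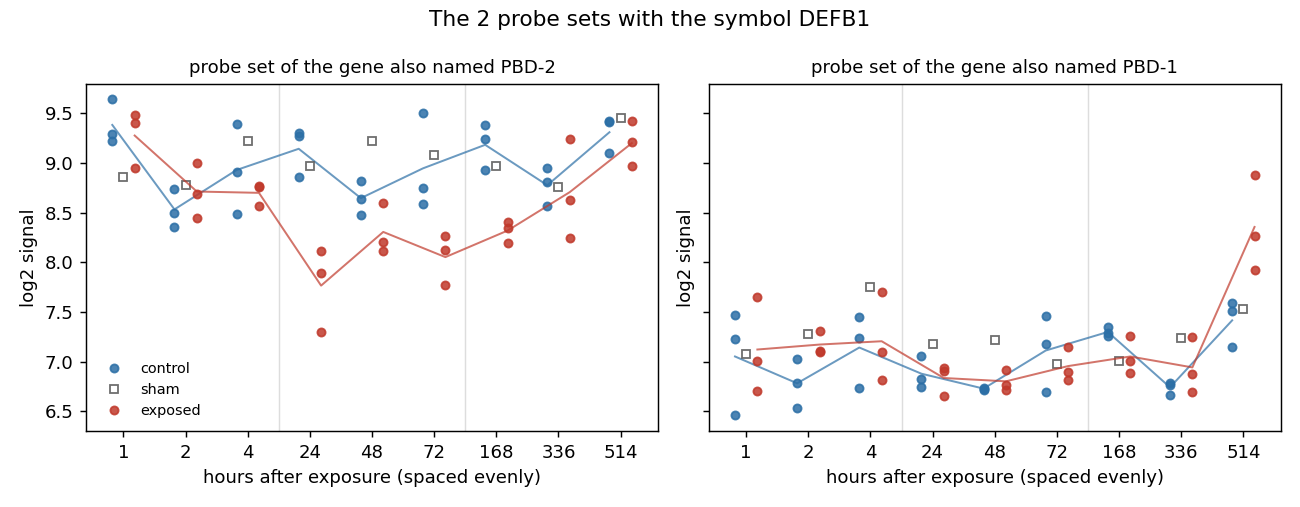
Log2 signal of the 2 probe sets with the symbol DEFB1 in each of 63 arrays against hours after exposure in evenly spaced steps, with exposed (red) and control (blue) arrays, sham arrays (open squares) and lines through the means of 3 arrays. The PBD-2 probe set was lower in exposed skin from 24 to 168 h, by 1.38 at 24 h, and the PBD-1 probe set was higher at 514 h, by 0.94.

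Within a time, arrays of the same replicate number can be compared as pairs, although the labels do not say that the number marks an animal. LTF, SLPI and TCN1 were higher in the exposed array of 9 of 9 pairs at 24 to 72 h, as were 8.89% of all probe sets, and of 9 of 9 at 168 to 514 h, as were 6.70%. DEFB1 was lower in 9 of 9 pairs at 24 to 72 h (7.78% of all probe sets) and in 7 of 9 at 168 to 514 h, where 5.90% were lower in 9 of 9. At 1 to 4 h LTF was higher in 6 of 9 pairs, SLPI in 7, DEFB1 in 4 and TCN1 in 6. These counts restate the contrast that the genes were chosen on.

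The sham arrays were not used in that choice, but the control arrays were. A test of unexposed animals against unexposed sites of exposed animals is therefore not independent of the choice. LTF read 7.89 to 10.30 in the 9 sham arrays, with a median of 9.03, against 7.82 to 10.40 and 9.28 in the 27 control arrays. For SLPI the sham arrays ranged from 9.41 to 11.33 (median 10.17) and the control arrays from 9.52 to 11.18 (median 10.29). For DEFB1 the ranges were 8.76 to 9.45 and 8.36 to 9.64. For TCN1 they were 6.54 to 8.32 and 6.62 to 8.76. The ranges of both kinds of unexposed skin overlapped almost entirely for each gene.

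Averaged over the 9 times, sham minus control was -0.18 ± 0.22 for LTF (limma adjusted p = 0.856), -0.17 ± 0.17 for SLPI (0.827), 0.05 ± 0.11 for DEFB1 (0.935) and -0.03 ± 0.23 for TCN1 (0.987). None of the 4 passed the threshold of 0.05. In limma 5 of 23999 probe sets (0.0208%) passed in this comparison, and 2168 had an unadjusted p below 0.05. A p above the threshold does not show that sham and control skin were alike.

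Histology scores of the exposed sites were a further measure that the choice of genes did not use. Pustular epidermitis, a score of pus in the epidermis, was 0, 0 and 3 in the 3 exposed sites of 24 h, 2, 3 and 1 at 48 h and 3, 0 and 4 at 72 h. At 72 h, in the sites scored 0, 3 and 4, LTF read 11.45, 11.37 and 11.60 and SLPI 11.65, 11.69 and 11.55. TCN1 read 10.24, 9.78 and 8.79 there, lower with each higher score, and DEFB1 7.77, 8.12 and 8.27, higher with each. At 24 h the site scored 3 was the lowest of the 3 sites for LTF (10.19) and DEFB1 (7.30) and lay between the sites scored 0 for SLPI (11.88) and TCN1 (9.11). DEFB1 was thus highest in the site with the highest score at 72 h and lowest in it at 24 h.

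Per point of the pustular epidermitis score, LTF had a slope of -0.10 ± 0.14 within times (limma adjusted p = 0.969), SLPI of -0.02 ± 0.11 (0.994), DEFB1 of -0.05 ± 0.07 (0.971) and TCN1 of -0.11 ± 0.14 (0.966). No slope of the 4 genes passed, in a comparison in which 14 of 23999 probe sets (0.0583%) did and 1633 had an unadjusted p below 0.05. The slopes rest on 9 exposed arrays.

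From 168 h another scale was used, on which the unexposed sites scored 13. The exposed sites scored 6, 6 and 9 at 168 h, 5, 6 and 10 at 336 h and 6, 7 and 9 at 514 h. At 168 h TCN1 was lowest, at 9.35, in the site with the highest total, while at 336 h it was highest there, at 10.46. Per point of the total score the slope was 0.08 ± 0.12 for LTF (limma adjusted p = 0.994), -0.04 ± 0.09 for SLPI (0.997), -0.10 ± 0.06 for DEFB1 (0.768) and -0.10 ± 0.12 for TCN1 (0.982). None passed, and 39 of 23999 probe sets (0.163%) did, with 1630 at an unadjusted p below 0.05.

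Complete re-epithelialization was scored in none of the 3 exposed sites at 168 h, in 1 at 336 h and in 3 at 514 h. That 1 site of 336 h, replicate 3, read 11.90 for LTF and 10.46 for TCN1, the highest of the 3 sites of that time for both genes. It read 8.25 for DEFB1, the lowest of the 3, and 11.42 for SLPI, between the other sites. At 514 h, with all 3 sites covered, the TCN1 signal was 9.36 to 9.95 against at most 8.32 in unexposed skin of that time.

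Genes of the same pathways were taken from 5 lists, with the 4 members left out, and tested in limma over all 23999 probe sets. The lists were chosen with earlier results of these data known. Their shares and adjusted p therefore describe the listed genes and are no test of a pathway. Of the 71 genes measured, 3 rose and 0 fell at 1 to 4 h, which is 4.23% against 2.07% of all probe sets that rose and 3.41% that fell. At 24 to 72 h 26 rose and 6 fell (36.6% and 8.45%, against 18.2% and 16.9% of all probe sets), and at 168 to 514 h 22 rose and 5 fell (31.0% and 7.04%, against 12.0% and 9.88%). With a change of at least 1 asked as well, 0 rose at 1 to 4 h (0.283% of all probe sets rose and 0.00833% fell by that rule), 10 rose and 3 fell at 24 to 72 h (1.22% and 0.950%), and 9 rose and 2 fell at 168 to 514 h (0.921% and 0.513%). Against the sham arrays of 1 to 4 h, 1 listed gene rose, as did 0.775% of all probe sets. Median differences over the 71 genes were 0.06, 0.05 and 0.10, beside -0.01, -0.00 and 0 over all probe sets.

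Among 24 other antimicrobial peptide and protein genes, 2 rose at 1 to 4 h, 7 rose and 2 fell at 24 to 72 h, and 7 rose and 3 fell at 168 to 514 h (medians 0.07, 0.04 and 0.05). The shares that rose were 8.33%, 29.2% and 29.2%, against 2.07%, 18.2% and 12.0% of all probe sets. In the later windows 8.33% and 12.5% fell, against 16.9% and 9.88% of all probe sets, and the last share lies near its background. ADM, which encodes the peptide adrenomedullin, rose by 1.00 ± 0.15 at 1 to 4 h (limma adjusted p = 1.13e-05). PTX3, the long pentraxin that opsonizes microbes, rose by 0.73 ± 0.20 at 1 to 4 h and by 3.11 ± 0.20 at 24 to 72 h. S100A9, a subunit of the metal-chelating protein calprotectin, rose by 2.74 ± 0.40 at 24 to 72 h and by 3.85 ± 0.40 at 168 to 514 h (adjusted p = 2.19e-09). In the last window its partner S100A8 rose by 1.43 ± 0.17 and S100A12, the related calgranulin gene, by 1.85 ± 0.21. CCL28, an epithelial chemokine gene with antimicrobial activity, fell by 2.33 ± 0.21 at 24 to 72 h, in 9 of 9 pairs and in the same window in which DEFB1 was lower.

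The PTX3 call at 1 to 4 h was lost without control 1 h replicate 2 (adjusted p = 0.0712), exposed 1 h replicate 3 (0.0724), exposed 4 h replicate 1 (0.0522) or exposed 4 h replicate 2 (0.0603), with values of 0.61 to 0.70. Of porcine cathelicidin genes, which were chosen after their values were seen, NPG4 (a protegrin) rose by 0.67 ± 0.18 over 168 to 514 h in 6 of 9 pairs. That mean rests on 336 h, where it differed by 1.68 ± 0.31, beside 0.01 at 168 h and 0.31 at 514 h. PR39 differed by 0.18 ± 0.09 without passing.

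Of 12 other genes of iron and heme withholding, the function of LTF, 0 passed at 1 to 4 h, where STEAP4, a metalloreductase gene, differed by 0.64 ± 0.25 (limma adjusted p = 0.142). At 24 to 72 h 8 rose and 0 fell, and at 168 to 514 h 5 rose and 0 fell (medians 0.08, 0.28 and 0.14 over the windows). The shares that rose were 66.7% and 41.7%, against 18.2% and 12.0% of all probe sets, of which 16.9% and 9.88% fell. SLC11A1, a transporter that removes metal ions from the phagosomes of macrophages, rose by 2.94 ± 0.15 at 24 to 72 h and by 1.45 ± 0.15 at 168 to 514 h. HMOX1, heme oxygenase, rose by 2.27 ± 0.13 and 1.34 ± 0.13, and STEAP4 by 2.03 ± 0.25 at 24 to 72 h. FTL, the ferritin light chain gene, rose by 0.31 ± 0.05 at 168 to 514 h, and by the mean of its probe sets that difference was 0.04 (adjusted p = 0.648). These differences were larger at 24 to 72 h than later for SLC11A1 and HMOX1, while that of LTF was larger later, which was not tested.

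The 21 antiprotease genes other than SLPI moved in both directions: 1 rose at 1 to 4 h, 6 rose and 4 fell at 24 to 72 h, and 5 rose and 2 fell at 168 to 514 h (medians 0.06, 0.06 and 0.11). The shares that rose were 28.6% (24 to 72 h) and 23.8% (168 to 514 h) and those that fell 19.0% and 9.52%, beside 18.2%, 12.0%, 16.9% and 9.88% of all probe sets, and the shares that fell lie near these. TIMP1, an inhibitor of matrix metalloproteinases, rose by 2.06 ± 0.13 at 24 to 72 h and by 1.14 ± 0.13 at 168 to 514 h. SERPINB1, an inhibitor of neutrophil elastase like SLPI, rose by 1.03 ± 0.12 at 168 to 514 h, and ITIH4, an acute phase gene, by 0.87 ± 0.14. The epidermal serpin gene SERPINB7 fell by 3.17 ± 0.20 at 24 to 72 h, and SPINK5, which encodes the kallikrein inhibitor of the cornified layer, by 1.84 ± 0.19. CSTB, a cystatin gene, rose by 0.27 ± 0.07 at 1 to 4 h (limma adjusted p = 0.0167). Its adjusted p was 0.0642 when exposed 1 h replicate 3 was left out and 0.0607 when exposed 2 h replicate 2 was, and against sham arrays its difference was 0.002.

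SLPI lies in a cluster of whey acidic protein genes, and in the Sscrofa11.1 annotation PI3 and SPAI-2 are among its nearest neighbours. PI3, which encodes the elastase inhibitor elafin, differed by 0.19 ± 0.09 at 24 to 72 h (limma adjusted p = 0.0903), and SPAI-2 by 0.03 ± 0.07 (0.795). The probe sets of both were dim, with means of 6.09 and 6.21. On the other side of SLPI, SDC4 rose by 0.93 ± 0.07 and SYS1 by 0.49 ± 0.06 at 24 to 72 h. Neither passed at 168 to 514 h (0.13 ± 0.07 and 0.05 ± 0.06). Next to LTF lies CCRL2, a chemerin-binding receptor gene, which rose by 1.28 ± 0.14 at 24 to 72 h and by 0.74 ± 0.14 at 168 to 514 h. Farther out on that side CCR1 (2.88 ± 0.16), CCR2, CCR3 and XCR1 rose at 24 to 72 h. On the other side ALS2CL fell by 0.54 ± 0.08 in that window.

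Of 8 other genes of cobalamin binding and use, 0 passed at 1 to 4 h, 2 rose at 24 to 72 h and 1 at 168 to 514 h, and 0 fell (medians 0.03, 0.03 and 0.04). The shares that rose, 25.0% and 12.5%, lie near the 18.2% and 12.0% of all probe sets. MUT, the methylmalonyl-CoA mutase gene, differed by 0.13 ± 0.09 at 1 to 4 h without passing. MMAB, an enzyme of adenosylcobalamin synthesis, rose by 0.33 ± 0.07 at 24 to 72 h and ABCD4, a lysosomal cobalamin transporter, by 0.31 ± 0.10. AMN, part of the intestinal receptor for cobalamin, rose by 0.31 ± 0.05 at 168 to 514 h from a dim probe set. The other cobalamin-binding protein genes, chosen after their values were seen, were TCN2, which differed by 0.05 ± 0.09 in both later windows, and GIF, the neighbour of TCN1, dim with a mean of 5.28 and 0.03 ± 0.05 at 168 to 514 h.

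Lactoferrin and haptocorrin are stored together in neutrophil granules, and of 13 other granule protein genes 1 rose at 1 to 4 h, 6 at 24 to 72 h and 6 at 168 to 514 h, with 0 lower (medians 0.09, 0.13 and 0.18). The shares that rose were 7.69%, 46.2% and 46.2%, against 2.07%, 18.2% and 12.0% of all probe sets. ARG1, the arginase gene, rose by 5.45 ± 0.43 at 24 to 72 h and by 4.48 ± 0.43 at 168 to 514 h (limma adjusted p = 3.24e-10). CHI3L1, the chitinase-like protein of secondary granules, rose by 0.96 ± 0.14 and 1.19 ± 0.14, and CYBA, a subunit of the phagocyte NADPH oxidase, by 0.74 ± 0.10 at 168 to 514 h. Genes of azurophil granules, chosen after their values were seen, did not pass: at 168 to 514 h the dim ELANE (neutrophil elastase) differed by 0.07 ± 0.07, PRTN3 by 0.08 ± 0.06 and BPI by 0.03 ± 0.05. OLFM4, a marker of part of the secondary granules, was dim too, at 0.07 ± 0.05.

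**Figure D4:**
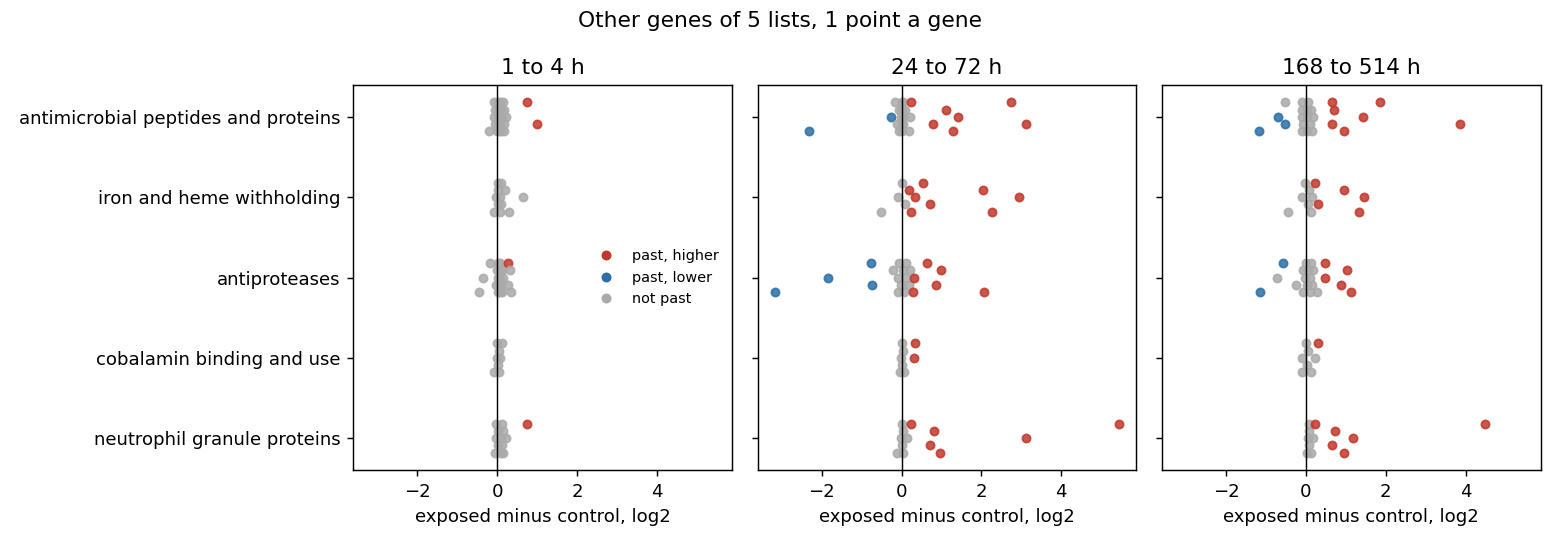
Exposed minus control on the log2 scale for the other genes of 5 lists in 3 windows, 1 point a gene, with a gene drawn in each list it belongs to and colours for genes past an adjusted p of 0.05 in limma. Genes past the threshold numbered 3 at 1 to 4 h, 32 at 24 to 72 h and 27 at 168 to 514 h of 71, with ARG1 farthest to the right at 5.45 and 4.48.

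Markers of cell types that store or produce these proteins were counted in the same windows. The arrays measured RNA, so protein stored in granules was not measured. The marker lists too were chosen with earlier results known, so the shares are a description. Of 13 neutrophil markers 10 rose at 24 to 72 h and 11 at 168 to 514 h (76.9% and 84.6%, against 18.2% and 12.0% of all probe sets), and their mean signal was 8.80 to 10.32 in exposed against 7.30 to 8.33 in control arrays, and 8.44 to 9.99 against 7.50 to 8.24. CXCL8, a neutrophil chemokine, rose by 5.35 ± 0.40 and PPBP, a platelet chemokine, by 4.72 ± 0.29 at 24 to 72 h. Their defining marker ITGAM was dim and did not pass (0.16 ± 0.09 at 168 to 514 h). The part of neutrophils in the higher LTF and TCN1 signals was not tested.

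Of 15 macrophage markers 11 rose at 24 to 72 h and 12 rose and 1 fell at 168 to 514 h (73.3% and 80.0% higher), with a mean signal of 10.10 to 10.75 in exposed and 9.27 to 10.08 in control arrays in the earlier window. Gland epithelium, another known source of lactoferrin, SLPI and haptocorrin, had 1 of 18 markers higher at 24 to 72 h (5.56%, below the 18.2% of all probe sets) and 8 at 168 to 514 h (44.4%, against 12.0%), with 0 lower. FOXA1, a transcription factor of gland epithelium, rose by 1.09 ± 0.23 and the simple keratin KRT19 by 0.77 ± 0.19 in the last window. The mean signal of the gland markers was 8.17 to 8.94 in exposed and 7.83 to 8.49 in control arrays then, and 8.28 to 8.73 against 8.21 to 8.69 at 24 to 72 h. Whether that mean bears on the higher signals of LTF, TCN1 and SLPI was not tested.

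The biopsies came from the abdomen of female pigs, where mammary tissue could be sampled. Of 10 mammary secretory markers 0 passed at 24 to 72 h, and at 168 to 514 h MFGE8 rose by 0.17 ± 0.06 and STAT5A fell by 0.23 ± 0.07. That is 10.0% of the list in each direction, near the 12.0% and 9.88% of all probe sets. The casein genes CSN1S1, CSN1S2 and CSN3 and the lactalbumin gene LALBA were dim, with means of 4.98 to 5.95, and their differences were between -0.08 and 0.14 in all 3 windows.

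DEFB1 is an epithelial gene, and SLPI is made by keratinocytes too, so 3 lists of epidermal markers are set beside them. Of 13 markers of differentiated keratinocytes 12 fell at 24 to 72 h, and 9 fell and 2 rose at 168 to 514 h, against 16.9%, 9.88% and 12.0% of all probe sets. SERPINB7 fell by 3.17 ± 0.20 in the earlier window, and CALML5, a calmodulin-like gene of the upper epidermis, fell by 3.12 ± 0.19. Their mean signal was 9.85 to 10.57 in exposed and 11.52 to 12.36 in control arrays at 24 to 72 h, so these groups did not overlap, and 9.63 to 12.42 against 11.79 to 12.53 later. Of 5 basal keratinocyte markers 3 fell at 24 to 72 h and 2 at 168 to 514 h, with 0 higher. The shares that fell were 60.0% and 40.0%, against 16.9% and 9.88% of all probe sets. The mean signal of these basal markers was 7.59 to 7.85 in exposed and 7.98 to 8.53 in control arrays, then 7.94 to 8.35 and 8.13 to 8.64. DST, which anchors basal cells to the basement membrane, fell by 0.90 ± 0.09 in the earlier window. Of 5 markers of activated keratinocytes 2 rose and 1 fell at 24 to 72 h, and 2 rose and 0 fell later. Thus 40.0% rose in each window, against 18.2% and 12.0% of all probe sets. The 20.0% that fell at 24 to 72 h lie near the 16.9% of all probe sets. AREG, the growth factor amphiregulin, rose by 1.41 ± 0.14 at 24 to 72 h, and SERPINB2 fell by 0.77 ± 0.22. At 24 to 72 h the exposed sites were scored 3 or 4 for epidermal necrosis and 4 for dermal necrosis. Unexposed sites of those times were scored 0 for both. The part of necrosis or of fewer differentiated keratinocytes in the lower DEFB1 signal was not tested. At 24 to 72 h the SLPI signal was higher, while markers of differentiated and basal keratinocytes were lower. Of 5 activated keratinocyte markers 2 rose and 1 fell in that window. Whether any of these markers bear on the SLPI signal was not tested.

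The genes whose signals were most like those of the members were found by Pearson correlation over the 63 arrays, which share the exposed and control groups, so r mostly reflects the course over time and no p is given. LTF was most like TCN1 (r = 0.827), followed by CDA, CLU, CPPED1 and TNC (0.784 to 0.802), and TCN1 most like LTF, then ADAM28, CNN2, CLU and PAPSS2 (0.806 to 0.826). SLPI was most like CTSC (0.78), AHCY, CDKN1A, B4GALT5 and IFNAR1. DEFB1 was most like TMEM54 (0.833), BCL11A, TMEM265, GJB5 and CALML5, of which the last 2 encode an epidermal connexin and the calmodulin-like protein named above. Between the members, r was 0.585 for LTF and SLPI, 0.606 for SLPI and TCN1, and -0.375 to -0.532 for DEFB1 with each of the others.

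Deviations of the 54 exposed and control arrays from their group means remove the course over time. Over these, LTF and TCN1 had r = 0.338, and the 5 other pairs of members lay between -0.116 and 0.12. The closest genes by this measure were TUSC3 (0.704), PAPSS2 and EPHX2 for LTF, ABLIM3 (0.61), LOC100512926 and GRK3 for SLPI, SERPINB11 (0.689), CHMP2A and MAPK13 for DEFB1, and NANP (0.691), C2H11orf68 and TMED3 for TCN1. PAPSS2, an enzyme that makes the sulfate donor for sulfation, stood on the LTF list by deviations and on the TCN1 list over all arrays. TUSC3 differed by 0.61 and PAPSS2 by 1.16 at 24 to 72 h, and NANP by 0.21.

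**Figure D5:**
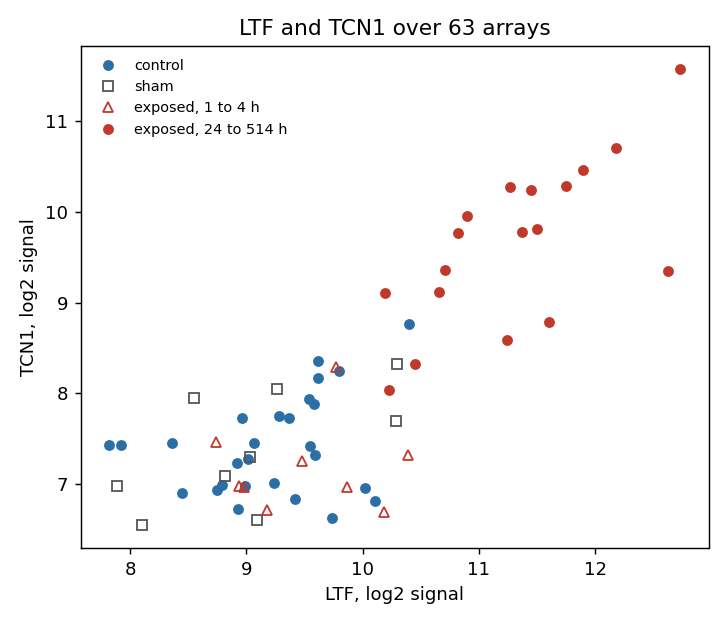
TCN1 against LTF log2 signal in 63 arrays, with control (blue), sham (open squares) and exposed arrays of 1 to 4 h (open triangles) and of 24 to 514 h (filled red). The exposed arrays of 24 h and later lie to the upper right, up to 12.73 for LTF and 11.58 for TCN1 in the same array, and r over all arrays is 0.827.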

How the data were processed

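The 63 arrays were porcine GeneChip arrays. The authors deposited 1 log2 value for each probe set and array, made with RMA, and Partek is also named, per the submitters' processing notes; versions are not given in the sources used here. They ran from 4.05 to 14.54 and were used as they stand. Low signals are compressed by RMA, which makes fold changes of dim probe sets too small. Of 24123 probe sets 124 controls were left out. limma 3.58.1, run in R 4.3.3 with version 1.17.8 of the data.table package, fitted the 27 groups in 1 model with 1 mean per group and 36 residual degrees of freedom; sham groups of 1 array are taken to vary like the others. P values are two-sided and adjusted by Benjamini-Hochberg over 23999 probe sets, with a threshold of 0.05. Slopes added the histology score to the same fit. The procedure was run on simulated data, with noise drawn independently for each probe set and array. Same-numbered arrays of the real data deviated together, so that run is no check of the p values under such shared deviations. Precision depends on how many arrays there are. Any 2 arrays of the same group differed with an SD of 0.231 to 0.583 over probe sets.

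The members and lists were chosen with earlier results of these data known. Listed genes are named by rule: per list and window up to 3 with the largest change past the threshold and the same sign in at least 8 of 9 pairs, else the largest; per member the 5 most correlated genes over arrays and 3 over deviations. Arrays of 1, 24 and 168 h, of 2, 48 and 336 h and of 4, 72 and 514 h were processed in 3 periods, so a difference within a time lies within a period.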

Additional observations from a re-analysis of the deposited data

Results flagged for a closer look

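In 28 sets of 9 arrays (exposed or control arrays of a window, or all sham arrays) the gap of the most extreme array to its neighbour was compared with the range of the set, and 1 set stood out, where chance alone gives about 1 in 20. TCN1 read 8.29 in exposed replicate 1 at 1 h, 0.518 of the range above the next of the 9 exposed arrays of 1 to 4 h (7.46), against a critical value of 0.493. The control array with the same number read 7.88. Without the exposed array the TCN1 difference at 1 to 4 h was -0.08 in place of 0.10.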

How the results depend on the processing

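The 12 window differences of the members were recomputed with a second quantile normalization, the muscle score as a covariate, sham arrays as the comparison, the labelling day as a block, a replicate block, the sacrifice day as a block, each window fitted alone, a gene's probe sets averaged, and leaving out each array. The replicate block, the sacrifice day block and the single window fits return the same differences by construction, since the groups are balanced over them. Their values could not move and are no check of the differences. The differences of LTF, SLPI and TCN1 at 24 to 72 h and 168 to 514 h stayed above 0 and that of DEFB1 below 0 in all of the runs. Of 120 values 115, among them those that could not move, moved by less than 1 SD between replicates. The exceptions were averaged probe sets, which take in a dim probe set of TCN1 (0.82 and 1.43) and a different gene for DEFB1 (-0.456 and -0.024), and sham arrays for SLPI at 1 to 4 h (0.74). Leaving out 1 array gave 1.65 to 2.09 and 2.35 to 2.504 for LTF, 0.97 to 1.14 and 1.08 to 1.26 for SLPI, -0.93 to -0.78 and -0.44 to -0.27 for DEFB1, and 1.35 to 1.65 and 2.46 to 2.83 for TCN1. At 1 to 4 h the sign of DEFB1 (-0.12 to 0.03) and of TCN1 (-0.08 to 0.22) depended on the array left out.

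Same-numbered exposed and control arrays deviated together with r over 0.1 in 21 of 27 pairs (mean 0.27), and 38 of 54 arrays correlated best with their own number, a hint from the data that the numbers may mark animals. The labels do not say so, so the numbers were not used as a pairing, and 6 pairs did not pass 0.1. By the design text exposed and control sites of a time share animals, so their arrays are not independent. The standard errors and adjusted p of exposed minus control in the main fit take no account of this. All 27 pairs shared a sacrifice day, and at all 9 times replicates 1 and 2 had the same day and replicate 3 another. At most times the sham array shared the day of replicate 3. The sacrifice day was used as a block after the data were seen. The members' differences could not change in that fit, because both arrays of every pair share the day. In that fit 26 listed genes rose and 6 fell at 24 to 72 h and 23 and 6 at 168 to 514 h. With the number as a replicate block the counts of listed genes were 4 higher at 1 to 4 h, 26 and 6 at 24 to 72 h and 25 and 7 at 168 to 514 h, and STEAP4 at 1 to 4 h (0.64) passed, at an adjusted p of 0.039.

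Sham minus control and the 2 slopes stayed past no threshold in any alternative run. Their signs turned for values near 0: without the 48 h sham array for DEFB1 (-0.015 to 0.12 over all arrays left out), without any 1 of 8 arrays for TCN1 (-0.12 to 0.075, the highest again without that sham array), in the pustular slope with the muscle score for SLPI (0.011) and on leaving out an array for SLPI (-0.084 to 0.032), DEFB1 (-0.21 to 0.055) and TCN1 (-0.21 to 0.048), and in the total slope of TCN1 (-0.28 to 0.055, the highest without exposed 168 h replicate 3).

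Of 71 listed genes 3 rose at 1 to 4 h, 1 against sham arrays or with the window fitted alone, 0 with a log2 change of at least 1, and 1 to 3 with an array left out (1 without exposed 1 h replicate 3), with 0 to 1 lower. With a change of at least 1, 10 rose and 3 fell at 24 to 72 h and 9 and 2 at 168 to 514 h; the other alternatives kept those counts within 1.5 times.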
